A study of Arabidopsis thaliana with 12 samples.

Results

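Seedlings of Arabidopsis thaliana, 7 days old, were sampled from the wild type Col-0 (wt) and from a triple mutant labelled hop1 hop2 hop3 (hop). Described here is the difference between these genotypes without heat, in the 6 libraries whose label CC was read as control conditions, 3 of wt and 3 of hop, out of 12 libraries in the series. The other 6 libraries, 3 of each genotype, were held at 38 °C for the last 3 h. They were part of the same fit of 12 libraries, so the spread behind the control calls was estimated from them too. A genotype difference can also be read again in them. The labels name neither the hop alleles nor the control temperature, and they do not say whether the replicates are separate cultures. Values are normalized counts, that is, the fragments of a gene after the authors' scaling, which by the values was 1 factor per library. A gene was tested where 3 or more of the 12 libraries had a value of 1 or higher, which was true of 23827 of the 32833 genes in the table. Fold changes compare hop with wt and were taken as log2(value + 1), so those of weakly expressed genes come out too small.

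HOP proteins (Hsp70-Hsp90 organizing proteins) are co-chaperones that hold HSP70 and HSP90 together, so that a partly folded client protein can pass from the first chaperone to the second. Arabidopsis has a small family of them, HOP1, HOP2 and HOP3, and the series was made to study their part in tolerance of heat. The genotypes compared here were grown without the heat treatment, which gives the state of the mutant before any stress. HSP90 clients include receptors, kinases and transcription factors, and its partners SGT1 and RAR1 are known from plant immunity, SGT1 also from auxin signalling.

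The control libraries held 26.1 to 33.9 M fragments, and 23264 to 23814 genes were detected in each. The share of fragments from chloroplast-encoded genes was 5.002% to 7.74% in wt and 6.37% to 8.03% in hop, so the groups overlapped. Marker lists of root hairs (7 genes), endodermis (8), stomatal lineage (9) and xylem (8) had no marker at 0 in all 6 libraries, and their summed levels overlapped between the genotypes except in the stomatal lineage. There the sum was 563 to 590.5 in wt and 500.5 to 552 in hop, and 0 of its 9 genes were called. Of the 9 fold changes 5 were positive, with a median of 0.08 on the log2 scale, so the lower sum was not shared by the list as a whole. The groups did not overlap in 17.7% of all single genes tested.

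The HOP genes themselves came first. HOP2 (AT1G62740) stood at 483, 635 and 548 normalized counts in the 3 wt libraries and at 7.68, 6.36 and 7.15 in the 3 hop libraries. All hop libraries lay far under all wt libraries, and the mean of hop was 1.27% of that of wt (log2 fold change -6.10, SE 0.12, adjusted p = 1.02e-13). HOP3 (AT4G12400) measured 78.5, 88.5 and 75.2 in wt and 9.39, 4.24 and 0 in hop. The groups did not overlap, but the hop libraries were spread from 0 upwards (log2 fold change -4.43, SE 0.69, adjusted p = 0.0259). The call of HOP3 ended with the replicate block (adjusted p = 0.052), with the 6 control libraries alone, blocked or not, and with a pseudocount of 0.5. It also ended without wt replicate 1, 2 or 3 or hop replicate 2, with an adjusted p of up to 0.107. It held in 9 of 17 alternatives, and the log2 fold change lay between -5.15 and -3.29 across the 17.

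HOP1 (AT1G12270) measured 538, 726 and 684 in wt and 554, 557 and 676 in hop. These ranges overlapped, and the difference was not called (log2 fold change -0.12, SE 0.16, adjusted p = 0.917). The level of HOP1 was thus not called lower in the libraries labelled hop1 hop2 hop3, so its level could not be used to check that label. HOP1 and HOP2 are close relatives in sequence and the positions of the lesions are not given, so a count over the whole gene cannot show whether HOP1 carries a lesion, and how fragments shared by both genes were counted is not given either. Every direction below is that of the libraries labelled hop.

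The heat libraries gave another picture of the 3 genes. HOP2 stood at 8629, 7318 and 8058 in the wt heat libraries and at 5128, 4046 and 4979.7 in the hop heat libraries. The genotype difference shrank from a log2 fold change of -6.10 at control to -0.77 under heat, and that change was itself called (interaction 5.34, SE 0.17, adjusted p = 1.27e-10). HOP3, known as a strongly heat-inducible member, stood at 122464, 89090.3 and 122589 in the wt heat libraries and at 1254, 1216 and 1346 in those of hop (log2 fold change -6.44, adjusted p = 0.00135). HOP1 was higher in hop under heat, at 2250.0, 1654 and 2299 against 1359, 991 and 1298 in wt (log2 fold change 0.76, adjusted p = 0.00869), although its interaction was not called (0.88, SE 0.22, adjusted p = 0.149).

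**Figure D1:**
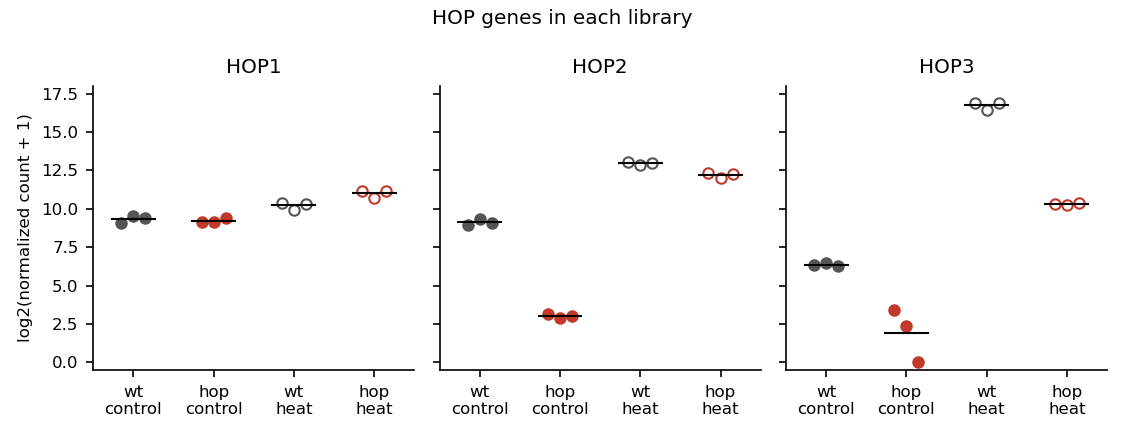
HOP1, HOP2 and HOP3 in each library as log2(normalized count + 1), with 1 point per library, filled for control and open for heat, grey for wt and red for hop, and a bar at the group mean. At control the hop libraries of HOP2 lie between 6.36 and 7.68 normalized counts and those of wt between 483 and 635, while the HOP1 libraries of both genotypes overlap.

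Across all tested genes, 198 were called (0.831% of 23827), 82 of them higher in hop (0.344%) and 116 lower (0.487%). A log2 fold change of 1 or more in either direction was reached by 83 of the called genes (0.348% of those tested), 33 higher and 50 lower. Few genes with large differences were thus called, and 23 of the 30 called genes beyond an absolute log2 fold change of 2 were lower in hop. Large fold changes also occurred among genes that were not called. The median log2 fold change of all tested genes was 0.012, and the smallest absolute value among the called genes was 0.383. In every called gene the 3 hop libraries did not overlap the 3 wt libraries, as was true of 17.7% of all tested genes.

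Same-numbered replicates of wt and hop deviated together at control, and with the replicate number as a block 680 genes were called (2.85%), 377 higher and 303 lower, among them 197 of the 198. Scaling by library size alone gave 172 calls with another split, 43 higher and 129 lower, among them 137 of the 198. The 6 control libraries fitted alone gave 91 calls, among them 73 of the 198. Single libraries weighed heavily on the list: 168 genes were called without wt replicate 1, 68 without wt replicate 2, 54 without wt replicate 3, 93 without hop replicate 1, 101 without hop replicate 2 and 116 without hop replicate 3. A set of 49 calls, 18 higher and 31 lower, held whichever control library was left out, and these genes are described first within each group.

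**Figure D2:**
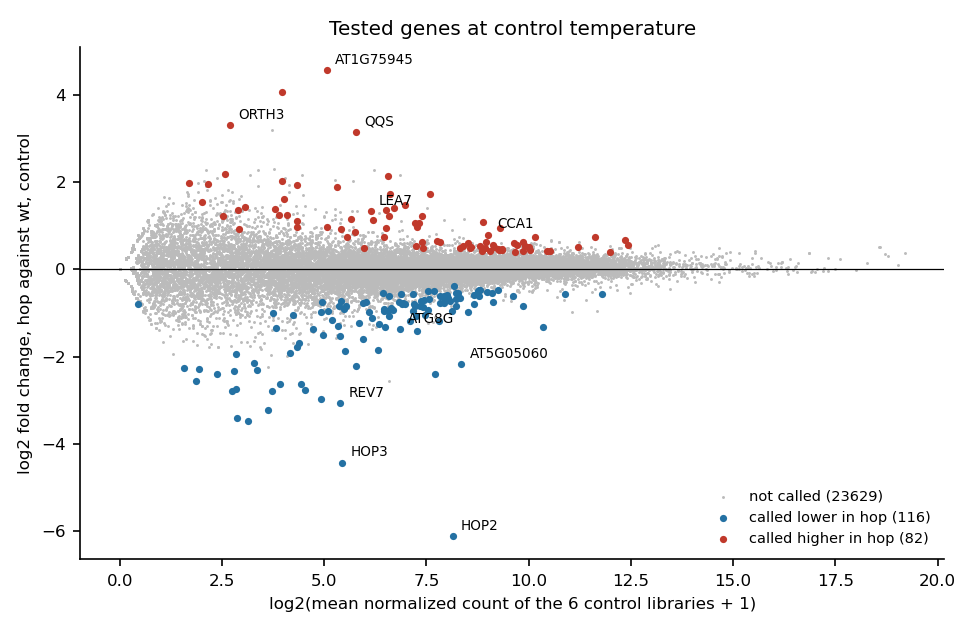
Log2 fold change of hop against wt at control against log2 of the mean normalized count + 1 of the 6 control libraries, with 1 point per tested gene, red where called higher in hop (82), blue where called lower (116) and grey where not called (23629). The largest differences are those of HOP2 at -6.10 and of AT1G75945 at 4.56, and most called genes lie between -2 and 2.

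Among the largest rises, AT1G75945, a gene with no description in the table, went from 1.83, 1.84 and 1.43 in wt to 73.4, 58.7 and 57.2 in hop (log2 fold change 4.56, SE 0.37, adjusted p = 2.46e-05). It was near silent in every wt library and plainly present in every hop library. ORTH3 (AT1G57800), a relative of the VIM proteins that recognise methylated DNA, had 0, 0.614 and 0 in wt and 10.2, 12 and 9.75 in hop (log2 change of 3.31, adjusted p = 0.0017). QQS (AT3G30720), an orphan gene of Arabidopsis that acts on the balance of carbon and nitrogen and whose level varies with the methylation of its own region, stood at 8.21, 13.5 and 8.59 in wt and 120.4, 77.1 and 93.6 in hop. All hop libraries of QQS exceeded all wt libraries several times over (log2 fold change 3.15, SE 0.47, adjusted p = 0.00512).

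The same held at lower fold for LBD26 (AT3G27940), a member of the LOB domain family of transcription factors, with 14.6, 17.2 and 15.8 in wt and 64, 63.6 and 56.5 in hop (log2 change of 1.89, adjusted p = 0.00213). AT4G13577, with no description in the table, had 47.5, 28.3 and 28.6 in wt and 187, 148 and 125 in hop (log2 change of 2.13, adjusted p = 2.04e-04). AT5G34871, described only as other RNA, had 75.7, 61.4 and 62.3 in wt and 180.2, 175 and 201 in hop (log2 change of 1.47, adjusted p = 1.93e-04). In these 3 genes the lowest hop library was above the highest wt library. The smallest of these stable rises was that of AT1G49900, a C2H2 zinc finger gene with 3.65, 3.07 and 3.58 in wt and 15.37, 9.9 and 8.45 in hop (log2 change of 1.43, adjusted p = 0.0102). Fitted with the 6 control libraries alone, its call ended (adjusted p = 0.118).

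Other large rises depended on single libraries. AT5G35660, a glycine-rich protein gene, had 0, 0.614 and 0 in wt and 36.7, 46.7 and 3.25 in hop, so that 1 hop library was far below the other 2 (log2 change of 4.07, adjusted p = 0.0306). ICL (AT3G21720), the isocitrate lyase of the glyoxylate cycle that seedlings use to turn stored oil into sugar, had 73, 76.8 and 103 in wt and 265, 442 and 187 in hop (log2 change of 1.73, adjusted p = 0.0354). SEC31A (AT1G18830), a coat protein of vesicles leaving the endoplasmic reticulum, had 2.74, 3.69 and 10.02 in wt and 13.7, 25.5 and 33.1 in hop (log2 change of 2.03, adjusted p = 0.0306). The hop libraries of all 3 genes were spread more than 2-fold. AT1G67105, described only as other RNA, rose by 1.73 on the log2 scale (adjusted p = 0.016), MYB305 (AT3G24310), a MYB transcription factor, by 1.61 (adjusted p = 0.0233), and DAA1 (AT1G64110), an AAA-type ATPase, by 1.4 (adjusted p = 0.0234). The calls of AT5G35660 and ICL ended without any one library other than hop replicate 3 (adjusted p up to 0.15 and 0.153), and AT5G35660 was not called by edgeR. The call of ICL held with the replicate block over 12 libraries (adjusted p = 0.0293), but not with the block on the 6 control libraries alone (0.188) or with edgeR and the block (0.0583). That of MYB305 ended without any one other than hop replicate 1 (up to 0.101). The call of SEC31A was lost without wt replicate 1 or 2 or hop replicate 2 or 3 (up to 0.132), that of AT1G67105 without wt replicate 2 or 3 or hop replicate 1 or 2 (up to 0.0907), and that of DAA1 without wt replicate 1 or 3 or hop replicate 2 or 3 (up to 0.109). Library size scaling and the 6 control libraries alone each ended the calls of SEC31A, MYB305 and DAA1 (up to 0.119, 0.0834 and 0.0976). With the 6 control libraries alone those of AT5G35660 and ICL ended too.

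The deepest falls after HOP2 and HOP3 included 1 gene of translesion DNA synthesis and 1 gene annotated as a cyclin. REV7 (AT1G16590), the accessory subunit of the translesion DNA polymerase zeta, fell from 77.6, 79.3 and 65.2 in wt to 5.98, 9.9 and 8.45 in hop (log2 fold change -3.06, SE 0.34, adjusted p = 4.12e-04). REV3 and REV1, its partners in translesion synthesis, did not pass the test, with log2 fold changes of 0.11 and -0.07 (adjusted p = 0.946 and 0.968). Of the 13 tested genes on the list of DNA damage response and translesion synthesis, REV7 was the single one called, and the median of the list was 0.11. The call was 7.69% of the list, beside 0.831% of all tested genes. CYCB1-5 (AT1G34460), annotated as a B-type cyclin, had 16.4, 22.7 and 24.3 in wt and 0.854, 1.41 and 1.95 in hop (log2 change of -3.21, adjusted p = 0.00213). Among 17 other cell cycle genes tested 0 were called, and their median was -0.16.

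AT3G32940, an RNA-binding protein with a KH domain, fell from 335, 395 and 321 in wt to 51.2, 68.6 and 79.9 in hop (log2 fold change -2.39, SE 0.35, adjusted p = 0.00627). Its groups were widely separated. AT4G25020, a gene for a protein with a D111/G-patch domain, had 11, 17.82 and 16.5 in wt and 0, 0.707 and 0.65 in hop (log2 change of -3.48, adjusted p = 4.02e-04). AT4G39600, an F-box protein of the kelch-repeat type, the kind of subunit that picks targets for ubiquitin ligases, had 46.5, 48.5 and 62.3 in wt and 5.98, 7.07 and 4.55 in hop (log2 change of -2.97, adjusted p = 8.20e-04). Another F-box gene, AT5G60610, had 15.5, 8.6 and 10.02 in wt and 0.854, 2.12 and 0 in hop (log2 change of -2.75, adjusted p = 0.00213). Apart from AT3G32940, these genes had under 10 normalized counts in every hop library, and the call of AT5G60610 ended when the 6 control libraries were fitted alone (adjusted p = 0.0568).

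Other falls depended on single libraries. AT4G22390, an F-box gene, had 14.6, 6.76 and 15.8 in wt and 0, 0.707 and 0 in hop (log2 change of -3.40, adjusted p = 0.00712). AT1G79890, a helicase of the RAD3 type, had 22.8, 25.8 and 17.9 in wt and 2.56, 1.41 and 3.25 in hop (log2 change of -2.79, adjusted p = 0.0345). THO7A (AT5G16790), a subunit of the THO complex that couples transcription to export of mRNA, had 35.6, 44.9 and 36.5 in wt and 9.39, 2.12 and 5.2 in hop (log2 change of -2.76, adjusted p = 0.019). In each of them every hop library was below every wt library. AT5G37450, a leucine-rich repeat kinase, AT4G33720, of the CAP family of secreted proteins, and AT5G48980, an F-box gene, fell, with log2 fold changes of -2.79, -2.62 and -2.32 (adjusted p = 0.00786, 0.0175 and 0.0306). Calls ended for AT4G22390 without wt replicate 3 (adjusted p = 0.0589), for AT1G79890 without any one library (up to 0.141), and for THO7A without wt replicate 2 or 3 or hop replicate 2 or 3 (up to 0.0925). They also ended for AT5G37450 without wt replicate 2 or 3 (up to 0.0703), for AT4G33720 without wt replicate 3 or hop replicate 1 or 3 (up to 0.0956), and for AT5G48980 without any one library other than hop replicate 2 (up to 0.161).

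**Figure D3:**
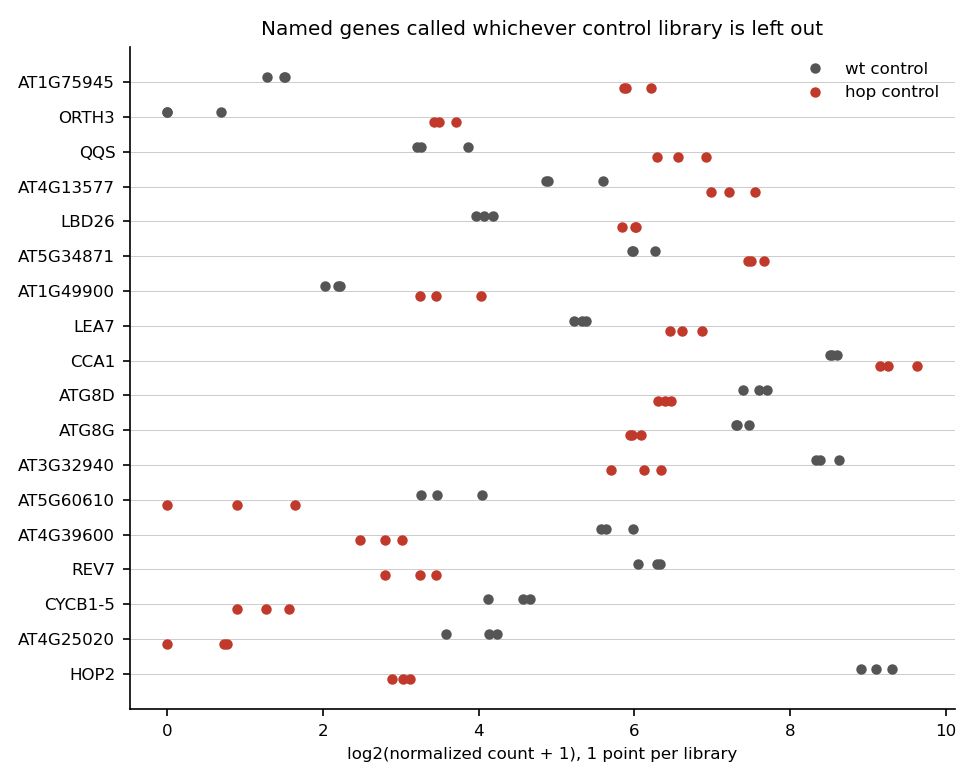
Log2(normalized count + 1) of the 18 named genes whose call held whichever control library was left out, ordered by fold change, with 1 point per control library, grey for wt and red for hop. In each gene the 3 hop points lie to one side of the 3 wt points, from 7.68, 6.36 and 7.15 against 483, 635 and 548 normalized counts in HOP2 to 73.4, 58.7 and 57.2 against 1.83, 1.84 and 1.43 in AT1G75945.

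Lists of the chaperone system that HOP serves are short, and at 0.831% of all tested genes called most would hold 0 calls. Of 7 HSP90 genes, the cytosolic and heat-inducible HSP90.1 (AT5G52640) was called higher, with 138, 146 and 112 in wt and 195, 226 and 190.4 in hop (log2 fold change 0.63, SE 0.12, adjusted p = 0.0218). Every hop library was above every wt library, but the call ended without wt replicate 3 or hop replicate 1 or 2 (adjusted p up to 0.141) or with the 6 control libraries alone (adjusted p = 0.105). HSP90.5, the plastid form, had 2396, 2868 and 2694 in wt and 3331, 3970.0 and 3787 in hop and was called with the replicate block (log2 change of 0.48, adjusted p = 0.0954, and 0.00432 with the block). The constitutive cytosolic HSP90.2, HSP90.3 and HSP90.4 had log2 fold changes of 0.04, -0.10 and -0.20 and did not pass the test. The call of HSP90.1 was 14.3% of the 7 genes, beside 0.831% of all tested genes.

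Of 12 other HSP90 co-chaperones 0 were called, beside 0.831% of all tested genes, with a median log2 fold change of -0.14 and 1 of 12 positive. With the replicate block SGT1A, an adaptor between HSP90 and immune receptors, was called lower (log2 change of -0.36, adjusted p = 0.244, and 0.0403 with the block). The HSP70 family had 0 of 16 called and a median of 0.12. With the block 1 rose and 2 fell, beside 2.85% of all tested genes called with it. AT3G12580, listed as HSP70-4, was left out of these counts because the annotation gives it another symbol. It was not called, but it was with the block (log2 change of 0.61, adjusted p = 0.144, and 0.00432 with the block). The constitutive HSP70-1 measured 21787, 19374 and 19696 in wt and 26307, 25706 and 23249 in hop (log2 change of 0.31, adjusted p = 0.36). Its hop libraries were all above those of wt, without passing the test.

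The small heat shock proteins, which hold unfolding proteins in a soluble state, had 0 of 17 called, yet 15 of the 17 fold changes were positive and the median was 0.37, beside 0.012 for all tested genes. HSP23.5, a mitochondrial form, measured 36.5, 39.3 and 22.9 in wt and 57.2, 82 and 48.1 in hop (log2 change of 0.90, adjusted p = 0.0685, and 1.29e-04 with the block). HSP17.6B measured 161, 129 and 137 in wt and 196, 182 and 183 in hop (log2 change of 0.40, adjusted p = 0.0692, and 0.0138 with the block). With the replicate block 4 of the 17 were called, all higher, beside 2.85% of all tested genes called with the block. AT1G54050, listed as HSP17.4CIII, was left out of these counts because the annotation gives it another symbol (log2 change of -0.21, adjusted p = 0.891). Heat shock factors (0 of 21 called, median 0.03), HSP100 and other effectors of thermotolerance (0 of 8, median 0.15, and 1 higher with the block) and genes of protein quality control in the endoplasmic reticulum (0 of 18, median 0.02) gave no calls. Of all tested genes 0.831% were called. HSP101, the disaggregase needed for acquired thermotolerance, measured 79.4, 86 and 93.8 in wt and 108, 95.5 and 87.1 in hop (adjusted p = 0.853).

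A group of 253 tested genes whose description names a chaperone, a heat shock protein, a J-domain, a prefoldin or a prolyl isomerase, chosen after values were seen, held 2 calls higher and 5 lower, 2.77% of the group beside 0.831% of all tested genes, with a median log2 fold change of 0.00484. With the replicate block, which called 2.85% of all tested genes, the balance turned to 8 higher and 6 lower. With the 6 control libraries alone 0 were called. CYP18-1 (AT1G01940), a cyclophilin-type prolyl isomerase, had 135, 139 and 124 in wt and 64.9, 86.3 and 60.4 in hop (log2 change of -0.92, adjusted p = 0.00326). Its call held with each library left out but not with the 6 control libraries alone. BOB1 (AT5G53400), a NudC-domain protein with chaperone activity, showed the smallest difference called, from 332, 334 and 320.0 to 248, 245 and 262 (log2 change of -0.38, adjusted p = 0.0327), and lost its call without any one library (adjusted p up to 0.134).

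Autophagy genes changed in a divided way. ATG8 proteins are ubiquitin-like proteins that are joined to the membrane of the growing autophagosome and bind cargo receptors. ATG8G (AT3G60640) measured 159, 158 and 177 in wt and 61.5, 67.2 and 60.4 in hop (log2 fold change -1.37, SE 0.17, adjusted p = 0.00123). ATG8D (AT2G05630) measured 207, 167 and 193 in wt and 77.7, 87.7 and 83.2 in hop (log2 fold change -1.18, SE 0.13, adjusted p = 4.02e-04). In both, every hop library lay far below every wt library, and both calls held under all 17 alternatives. ATG12A (AT1G54210), the ubiquitin-like partner of ATG5, fell from 238, 248 and 232 to 172, 170.4 and 170.3 (log2 change of -0.48, adjusted p = 0.0403), and ATG8B (AT4G04620) rose from 282, 236 and 283 to 372, 361 and 390.0 (log2 change of 0.49, adjusted p = 0.0342). These smaller changes lost their calls without any one library for ATG12A (adjusted p up to 0.175) and without any one other than wt replicate 1 for ATG8B (up to 0.171), and both with library size scaling (adjusted p = 0.116 and 0.166).

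The most abundant family members did not pass the test. ATG8F stood at 4522 in wt and 4156 in hop on average, and ATG8E at 2959 and 2773, with log2 fold changes of -0.12 and -0.09 (adjusted p = 0.734 and 0.931). The cargo receptor NBR1, which brings ubiquitinated proteins to autophagosomes, differed by -0.13 on the log2 scale (adjusted p = 0.761). Of 21 autophagy genes tested, 1 rose, 3 fell and 17 did not pass the test, and the median was -0.09. The calls were 19.0% of the list, beside 0.831% of all tested genes.

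Among genes grouped by description as cystatins, 4 fell. Cystatins inhibit cysteine proteases, but AT5G56990 is described only as a member of the cystatin/monellin superfamily. Whether the products of the 4 genes are inhibitors was not tested. The group was assembled from the descriptions after its values were seen, so its count is a description. Of 13 tested genes 4 fell and 0 rose (30.8% called, beside 0.831% of all tested genes), between 3 and 4 were called lower with 1 library left out, 12 of 13 fold changes were not positive, and the median was -0.65. AT5G05060 measured 562, 486 and 553 in wt and 128, 112 and 113 in hop (log2 fold change -2.17, SE 0.12, adjusted p = 1.21e-07), the smallest adjusted p after HOP2. Its hop libraries were closely grouped and far below those of wt. CYS7 (AT5G05110) fell from 391.5, 339 and 414 to 220.3, 207 and 205 (log2 change of -0.85, adjusted p = 0.00111), and AT5G56910 from 213, 181 and 219.8 to 101, 92.6 and 98.1 (log2 change of -1.06, adjusted p = 0.00229). The calls of these 3 genes held with each library left out. AT5G56990 fell from 27.4, 30.1 and 50.8 to 2.56, 6.36 and 6.5 (log2 change of -2.62, adjusted p = 0.0102), with the call ending without wt replicate 3 or hop replicate 1 (adjusted p up to 0.0834).

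By locus code the 4 genes lie in 2 pairs on chromosome 5. AT5G05060 lies close to CYS7, and AT5G56910 close to AT5G56990. How fragments that match several family members were counted is not given. The better expressed cystatins lay elsewhere and did not pass the test: CYS1, CYS6 and CYS3 had means of 1754, 1569.8 and 1238 in wt and log2 fold changes of -0.06, -0.06 and -0.24.

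Some genes of dehydration and seed maturation rose. Late embryogenesis abundant (LEA) proteins are hydrophilic proteins that accumulate in drying seeds and under osmotic stress, many of them under the control of abscisic acid. LEA7 (AT1G52690) rose from 39.2, 36.3 and 40.8 in wt to 96.5, 116 and 87.1 in hop (log2 fold change 1.33, SE 0.14, adjusted p = 2.37e-04), a call that held under all 17 alternatives. AT3G02480, another LEA gene, rose from 107, 91.5 and 98.8 to 247, 253 and 199 (log2 change of 1.22, adjusted p = 8.20e-04) and was as stable. In both, every hop library lay well above every wt library. By description, and chosen after values were seen, 6 of 64 tested LEA genes rose and 0 fell, with a median of 0.25. With the replicate block 13 rose, beside 2.85% of all tested genes called with the block. The other 4 of the 6 were AT2G42560, AT4G36600, AT3G17520 and AT2G23110, with log2 fold changes of 1.94, 1.39, 1.36 and 0.94. The call of AT3G17520 ended without any one library other than hop replicate 3 (adjusted p up to 0.0765), as did that of AT2G42560 (up to 0.12). The call of AT4G36600 ended without wt replicate 2 or 3 or hop replicate 1 or 2 (up to 0.222), and that of AT2G23110 without wt replicate 2 or hop replicate 3 (up to 0.0621). AT2G23110 was also not called by edgeR with or without the block, by DESeq2, with library size scaling, with the 6 control libraries alone, blocked or not, or with a pseudocount of 5 (adjusted p up to 0.273). AT4G36600 was not called with library size scaling, the 6 control libraries alone, a pseudocount of 0.5 or 5, or no filter on low values (up to 0.200). The 6 control libraries alone also ended the call of AT2G42560 (adjusted p = 0.0751). With 1 library left out between 2 and 6 of the 64 rose, with 2 without wt replicate 2, beside 9.38% called in the group and 0.831% of all tested genes.

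The list of abscisic acid, osmotic and cold response had a median of 0.06. On it 3 of 31 tested genes rose and 0 fell, 9.68% called beside 0.831% of all tested genes. Besides LEA7 these were RD29B (AT5G52300), a classical marker of abscisic acid, with 96.7, 104 and 107 in wt and 213, 211 and 182 in hop (log2 change of 0.97, adjusted p = 0.0148), and ADH1 (AT1G77120), alcohol dehydrogenase, with 62.1, 68.8 and 63.7 and 129.8, 109.6 and 92.9 (log2 change of 0.75, adjusted p = 0.0198). The groups of both were well apart. RD29B lost its call without wt replicate 2 or 3 or hop replicate 1 or 2 (adjusted p up to 0.0612), and ADH1 without any one library other than hop replicate 3 (up to 0.095). Library size scaling also ended the call of RD29B (adjusted p = 0.0547), and the 6 control libraries alone that of ADH1 (0.0966). RD29A, the neighbour of RD29B that also answers to drought and cold, had 963, 849 and 929 in wt and 816, 846 and 989 in hop (adjusted p = 0.951). NCED3, the key enzyme of stress-induced abscisic acid synthesis, differed by 0.12 on the log2 scale (adjusted p = 0.942). With the replicate block 8 of the 31 were called, all higher, beside 2.85% of all tested genes called with the block. Among the 8 were KIN2 (log2 change of 0.61, adjusted p = 0.0676, and 0.00227 with the block) and the seed LEA gene EM6 (log2 change of 1.32, adjusted p = 0.206, and 0.0427 with the block).

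Markers of seed reserves stood beside these genes. The summed level of the 10 seed storage markers was 56.6, 97.7 and 249 in wt, ordered by size, and 178, 532 and 681 in hop, so the groups overlapped, and 0 of the 10 were called (median 0.44, none at 0 in all 6 libraries). Only 5 of the 10 fold changes were positive, and on the log2 scale they ran from -1.30 to 2.27. Of the positive ones, OLEO2, a coat protein of oil bodies, had 32.9, 29.5 and 9.31 in wt and 173, 149 and 44.8 in hop (adjusted p = 0.446). CRA1, a cruciferin storage protein, had 27.4, 67.6 and 7.88 in wt and 219, 346 and 19.5 in hop (adjusted p = 0.705). OLEO2 and CRA1 were picked after their values were seen. Library values of the other seed markers, falling ones among them, are not given here. Among the hop libraries replicate 3 was the lowest in OLEO2 and CRA1 as in ICL and AT2G42560. Among the wt libraries replicate 3 was the lowest in OLEO2, CRA1 and AT2G42560 but the highest in ICL. The part of residual seed transcripts in the LEA and ICL differences was not tested. In seedlings sampled in bulk a difference in the number of cells of a type and a difference in RNA per cell cannot be told apart.

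A few morning genes of the circadian clock rose. CCA1 (AT2G46830), one of the MYB-like repressors that peak around dawn, had 371, 365 and 389 in wt and 570.4, 614 and 794 in hop (log2 fold change 0.80, SE 0.11, adjusted p = 0.00213). Its partner LHY (AT1G01060) had 193, 180.0 and 163 in wt and 299.7, 253 and 283 in hop (log2 fold change 0.64, SE 0.11, adjusted p = 0.0107). RVE2 (AT5G37260), of the same family, had 407, 353 and 433 in wt and 532, 492 and 584 in hop (log2 change of 0.43, adjusted p = 0.0493). In all 3 the hop libraries lay above the wt libraries. The evening gene TOC1, repressed by CCA1 and LHY, differed by -0.08 on the log2 scale (adjusted p = 0.951), and GI, another evening gene, by -0.37 (adjusted p = 0.16, and 0.0354 with the block). Of 23 clock genes tested 3 rose and 20 did not pass the test, and the median was 0.08. The calls were 13.0% of the list, beside 0.831% of all tested genes. The call of CCA1 held with each library left out, but scaling by library size alone ended it (adjusted p = 0.0633), as it did for LHY (0.106) and RVE2 (0.317). LHY lost its call without wt replicate 3 or hop replicate 1 (adjusted p up to 0.0831) and RVE2 without any one library (up to 0.23).

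In flavonoid synthesis DFR (AT5G42800), the reductase at the entry to anthocyanins, rose from 91.3, 95.2 and 119.6 in wt to 167, 248 and 231 in hop (log2 fold change 1.06, SE 0.21, adjusted p = 0.0248). It was the 1 call among 17 tested genes, whose median was 0.18, or 5.88% called beside 0.831% of all tested genes. The call ended without any one library other than hop replicate 1 (adjusted p up to 0.115) and with library size scaling (adjusted p = 0.0683). F3H and TT4 (chalcone synthase), earlier steps of the pathway, had log2 fold changes of 0.53 and 0.64 with an adjusted p of 0.0764 and 0.0898, and of 0.00458 and 9.81e-04 with the replicate block. PAP1, a MYB activator of the pathway, was at or under 0.707 in all 6 libraries.

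Among 1109 tested genes described as chloroplastic, a group drawn from descriptions after values were seen, 11 rose and 3 fell. That is 1.26% called, near the 0.831% of all tested genes. Of the fold changes, 788 were positive, and the median was 0.09, beside 12535 positive of 23827 and a median of 0.012 for all tested genes. The replicate block gave 63 higher and 6 lower, beside 2.85% of all tested genes called with it. Scaling by library size alone left 4 higher and 3 lower and turned the median of the group to -0.00119, beside -0.07 for all tested genes. With 1 library left out between 1 and 14 were called higher and between 1 and 2 lower, with 1 higher and 1 lower without wt replicate 2. LHCB4.3 (AT2G40100), a minor antenna protein of photosystem II, rose from 285, 283 and 328 to 590.0, 571 and 762 (log2 change of 1.09, adjusted p = 0.00464), with no overlap and with each library left out. CHLG, the chlorophyll synthase, and FD1, a ferredoxin, rose by 0.52 and 0.67 on the log2 scale (adjusted p = 0.0208 and 0.0175). Both calls ended without wt replicate 2 or 3 or hop replicate 1 or 2 (adjusted p up to 0.106 and 0.095). FAX3, a fatty acid exporter of the plastid envelope, fell, with a log2 fold change of -0.61 (adjusted p = 0.00512).

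The list of nuclear photosynthesis genes had 0 of 32 tested genes called and a median of -0.00461. Of 132 chloroplast-encoded genes 0 were called, with 122 positive and a median of 0.33. The share of fragments from those genes in each library, given above, overlapped between the genotypes, and its part in the values of the nuclear genes was not tested.

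Some genes for small proteins of the respiratory chain fell. In a group of 34 tested genes described as subunits or assembly factors of cytochrome c oxidase or reductase, chosen after values were seen, 4 fell and 0 rose, 11.8% of the group beside 0.831% of all tested genes, with a median of 1.98e-06. The block gave 5 lower and 2 higher, beside 2.85% of all tested genes called with it. With 1 library left out between 1 and 2 were called lower, with 1 higher without wt replicate 2. AT2G01090, described as a hinge protein of ubiquinol-cytochrome c reductase, had 250.1, 197 and 225 in wt and 82.8, 75 and 93.6 in hop (log2 fold change -1.41, SE 0.13, adjusted p = 8.05e-05). Every wt library lay well above every hop library, and the call held under all 17 alternatives. The assembly factor genes ATCOX19-1, AT4G23760 and AT5G16060 fell, with log2 fold changes of -0.84, -0.77 and -0.75 (adjusted p = 0.0306, 0.0306 and 0.0298). ATCOX19-1 lost its call without any one library (adjusted p up to 0.127), AT4G23760 without any one other than hop replicate 1 (up to 0.12) and AT5G16060 without wt replicate 1 or 3 or hop replicate 1 or 3 (up to 0.12).

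Of 340 tested genes described as F-box proteins, a group again chosen after values were seen, 6 fell and 1 rose, 2.06% of the group beside 0.831% of all tested genes, with a median of 0. The rise, of AT3G44120, ended with library size scaling, with the 6 control libraries alone and without wt replicate 2 or 3 or hop replicate 3. Of the falls, those of AT4G39600 and AT5G60610 held whichever library was left out, and between 2 and 5 genes were called lower with 1 library left out. UBC11 (AT3G08690), a ubiquitin-conjugating enzyme, was outside the rule for named genes and was picked for the strength of its call. It fell from 484, 496 and 468 to 272, 256 and 214 (log2 fold change -0.97, SE 0.10, adjusted p = 1.63e-04), with the groups well apart and the call unchanged by any left-out library. APA2 (AT1G62290), an aspartic proteinase of the vacuole picked in the same way, rose from 429.8, 461 and 391 to 918, 897 and 692 (log2 change of 0.96, adjusted p = 9.05e-04). The list of the COP9 signalosome, which acts on cullin ubiquitin ligases, had 0 of 10 called, although all 10 fold changes were negative with a median of -0.15.

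ROS1 (AT2G36490), the DNA demethylase, was the other call besides QQS on the list of DNA methylation, small RNA and their targets, with 219, 354 and 289 in wt and 142, 172 and 181 in hop (log2 change of -0.78, adjusted p = 0.0493). The call ended without any one library other than wt replicate 1 (adjusted p up to 0.247) and with library size scaling (0.115). Of the 13 tested genes on this list 1 rose and 1 fell, beside 0.831% called of all tested genes, and the median was 0.08. The methyltransferases MET1, CMT3 and DRM2 had log2 fold changes of 0.09, 0.20 and -0.23 and did not pass the test.

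FLC (AT5G10140), the main repressor of flowering, measured 111, 108 and 120.3 in wt and 70.9, 70.7 and 74.1 in hop. The groups were apart, yet the adjusted p was 0.054, and 0.0211 with the replicate block (log2 fold change -0.64). Of 11 flowering time genes tested 0 were called and all 11 fold changes were negative, with a median of -0.27. Lists of jasmonate (20 tested), salicylic acid and immune response (25), auxin response (21), light and shade regulators (13), glucosinolate synthesis (24), sulfur deficiency (16), phosphate starvation (16) and nitrate uptake (16) held 0 calls, beside 0.831% of all tested genes, and their medians lay between -0.11 and 0.10. With the replicate block 1 gene was called in each of the salicylic acid, light and nitrate lists, beside 2.85% of all tested genes. In limma, 2458 of all tested genes had an unadjusted p under 0.05, and with edgeR 305 genes and with DESeq2 440 were called.

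**Figure D4:**
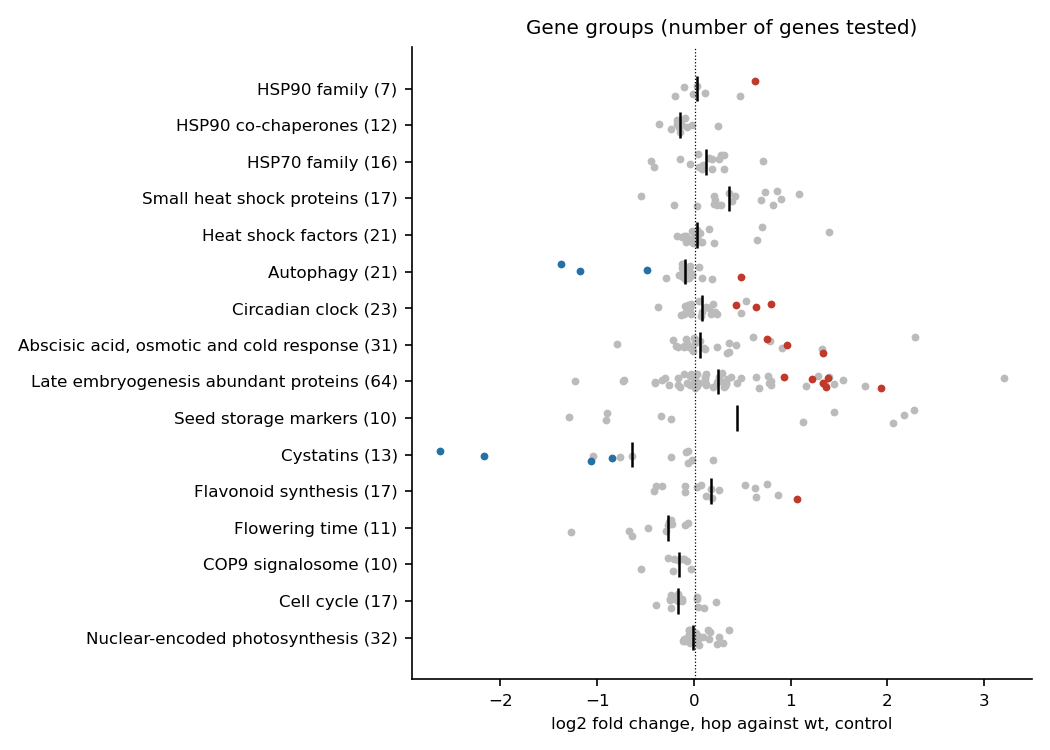
Log2 fold change of hop against wt at control for the tested genes of 16 groups, with 1 point per gene, red where called higher, blue where called lower, grey where not called, a black bar at the group median and a dotted line at the median of all tested genes. The small heat shock proteins have a median of 0.37 and no call, cystatins a median of -0.65 with 4 calls lower, and late embryogenesis abundant proteins 6 calls higher of 64.

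The called genes were spread over the genome. On chromosomes 1 to 5 between 0.674% and 0.895% of tested genes were called, on the chloroplast genome 0 of 132 and on the mitochondrial genome 1 of 136. Of the 40 tested genes nearest to HOP1, 20 on each side in locus order, 0 were called, and 1 of 40 was called near HOP2 and near HOP3. Near HOP2 it was AT1G62730, the next tested locus, described as a terpenoid synthase, which rose from 46.5, 61.4 and 62.3 in wt to 119, 128 and 157 in hop (log2 fold change 1.23, SE 0.14, adjusted p = 4.02e-04). All hop libraries exceeded all wt libraries, and no left-out library ended the call. Near HOP3 it was GAE5 (AT4G12250), an epimerase that makes a precursor of pectin, with a log2 fold change of -0.70 (adjusted p = 0.0493), a call that ended without any one library (up to 0.223).

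The heat libraries share no sample with the control libraries, so each genotype difference could be read again, within the same model of 12 libraries. Under heat 2053 genes were called, 889 higher in hop (3.73%) and 1164 lower (4.89%). Of the 82 genes higher at control 45 (54.9%) were called higher under heat, 0 lower, and 80 had a positive fold change, with a median of 0.48 beside 0.83 at control. Of the 116 genes lower at control 77 (66.4%) were called lower under heat and 109 were negative, with a median of -0.73 beside -0.93. The 122 genes called in the same direction at both temperatures were 61.6% of the control calls and 5.94% of the heat calls.

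AT1G75945, QQS, AT5G34871, REV7, AT3G32940 and AT5G05060 were also called under heat, with log2 fold changes of 3.80, 3.79, 1.57, -2.46, -2.39 and -1.93. ATG8G, ATG8D, RD29B and LHY were called again in the same direction (-1.81, -0.73, 1.52 and 0.72). RVE2 had the opposite sign under heat without being called (-0.31, adjusted p = 0.0591), and AT5G60610 and SEC31A were close to 0 there (-0.12 and 0.03, adjusted p = 0.888 and 0.983). The interaction was not called for RVE2, AT5G60610 or SEC31A (adjusted p = 0.0668, 0.084 and 0.233). CCA1 and HSP90.1 were not called under heat, with 0.30 and 0.20 (adjusted p = 0.0988 and 0.333). AT4G20350, described as an oxidoreductase, was the single control call that was called in the opposite direction, from a log2 fold change of -0.73 to 0.61. A difference of the genotype effect between temperatures was called for 12 of all tested genes, and for 2 of the 198, HOP2 and AT4G20350 (interaction adjusted p = 1.27e-10 and 0.0207). The control call of AT4G20350 ended without wt replicate 2 or 3 or hop replicate 1 (adjusted p up to 0.0858).

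**Figure D5:**
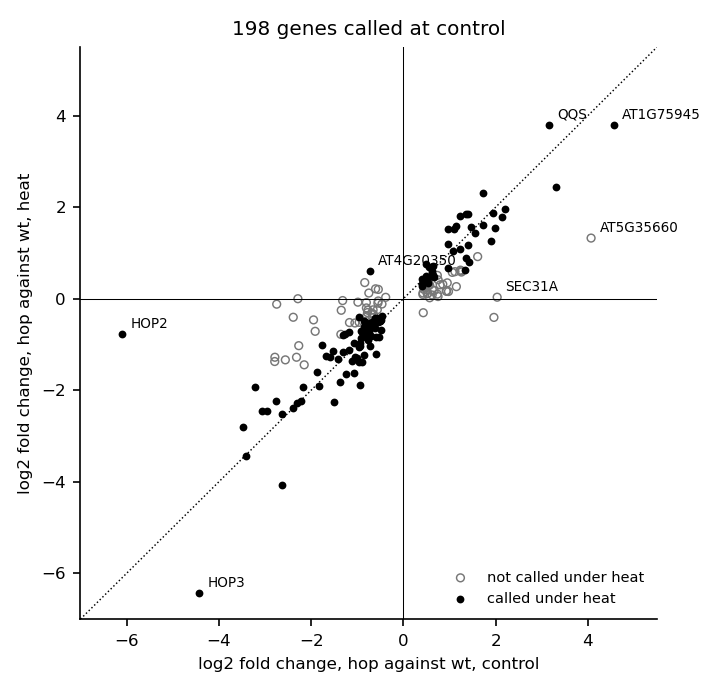
Log2 fold change of hop against wt under heat against that at control for the 198 genes called at control, filled where also called under heat and open where not, with a dotted line of equality. Of the 198 genes, 122 were called in the same direction in both, HOP2 lies far off the line at -6.10 and -0.77, and AT4G20350 changes sign.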

How the data were processed

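Seedling RNA was extracted with Trizol and an RNeasy kit and per the labels' protocols made into libraries by a stranded method for mRNA. The deposited signal is, per the file headers, a normalized number of fragments per gene and library, called a normalized count here. How the authors normalized it is not stated, but within a tolerance of 0.01, 100% of values were whole multiples of 1 step per library, from which whole reads were recovered. The submitters' processing notes name TopHat2 2.1.0, HTSeq and DESeq2 1.1.14, without giving roles. The genome build, the annotation, filters, the strand setting of the counting and the treatment of reads that match several genes are not given in the sources used here. Antisense, overlapping and near-identical genes are therefore uncertain.

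Values were tested as log2(value + 1) with limma 3.58.1 (trended and robust variances, R 4.3.3) over 4 groups of 3 libraries, with Benjamini-Hochberg adjustment over the 23827 genes reaching a value of 1 in 3 or more libraries. Genes with an adjusted p under 0.05 were called. The authors' deposited fold changes and p columns were not used. The procedure was tested on simulated data. A group total of 3 fragments corresponds to a mean of 0.728 in wt and 0.727 in hop, a limit that covers counting error only. Nothing says that the replicates are separate cultures, and the spread that p-values rest on here may be technical.

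Named genes were HOP1 to HOP3, the 15 largest rises and 15 largest falls among called genes whose log2 fold change was 1 or more in size, whose higher group had a mean of 10 or more and whose groups did not overlap, and up to 4 called members of each list. Other genes named were chosen after their values were seen. The comparison, the rule and the gene lists were chosen with earlier results of these data known. Deviations from the group means correlated between same-numbered wt and hop control libraries (r = 0.54, 0.33 and 0.35 over 19633 genes), which is where the pairing comes from. At heat the values were 0.06, 0.20 and 0.34. Alternatives were edgeR 4.0.16 and DESeq2 1.42.0 on recovered reads, library size scaling, the 6 control libraries alone, a replicate block, pseudocounts of 0.5 and 5, other filters, and leaving out each control library.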

Additional observations from a re-analysis of the deposited data

Results flagged for a closer look

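The genotype difference of HOP2 differed between temperatures by the interaction term of the model: the log2 fold change of hop against wt was 5.34 higher under heat than at control (SE 0.17, adjusted p = 1.27e-10), and each hop library was below each wt library at both temperatures. The genotype difference of AT4G20350 also differed by the same term, by 1.34 on the log2 scale (adjusted p = 0.0207), from lower in hop at control to higher in hop under heat. AT4G20350 is outside the rule for named genes and was picked after its values were seen.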

How the results depend on the processing

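The count of 198 called genes became 305 with edgeR, 440 with DESeq2 and 91 with the 6 control libraries alone. With the replicate block it was 680, and 1654 with the replicate block and the 6 control libraries alone. edgeR with the replicate block, an alternative chosen after seeing the data, gave 1507. For called genes that differed by 1 or more on the log2 scale, 83 became 55 with the 6 control libraries alone, 143 with the replicate block, 226 with the block and those libraries alone, and 204 with edgeR and the block. Leaving out 1 control library gave between 54 and 168 called genes, and between 35 and 80 with the larger fold change. Under heat 2053 became 4302 with the replicate block, although the numbers there were not shown to pair the samples. Of the 198 genes, edgeR also called 189, DESeq2 185 and library size scaling 137. Scaling by library size moved the median log2 fold change of all genes to -0.07, so that fewer genes were called higher. With 3 libraries a group and adjusted p-values often near the threshold, a gene that missed it was not shown to be equal between the genotypes.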
